A study of Mus musculus with 12 samples.

Results

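The STAT and IRF transcription factors were followed through the deposited counts as 9 rows of the table: Stat2, Stat3, Irf1, Irf5, Irf7, Irf8 and Irf9, plus Tnpo3 and Phrf1, which lie on the opposite strand beside Irf5 and Irf7 and may carry reads of those neighbours. The 9 members, named as a list and not chosen by a threshold, were all present among the 24552 symbols of the table. They held 8352 counts over 12 libraries, which was 0.146% of all counts. Of the 9, 6 passed the filter on low counts that left 2356 genes for testing, and Stat3, Irf8 and Irf9 did not.

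The cells were macrophages of the mouse, differentiated from bone marrow for 6 days with the growth factor M-CSF at 10 ng/ml. After 1 h with DMSO vehicle or with 50 nM ISRIB, a small molecule that blocks the integrated stress response, M1-like cells received IFN-γ (25 ng/ml) together with LPS (10 ng/ml) over 16 h, with vehicle or ISRIB still present. What the M0 cells received during those hours is not spelled out in the labels. Each state (M0 or M1) under each treatment (vehicle or ISRIB) had 3 samples labelled as biological replicates, and since the labels do not say whether these came from separate animals, p-values measure only the spread between these samples.

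As background, cytokine receptors activate JAK kinases, which phosphorylate STAT proteins so that they pair and enter the nucleus. IFN-γ acts mainly through STAT pairs that bind GAS elements, whereas type I interferon acts through a complex of STAT proteins, STAT2 among them, with IRF9 that binds ISRE elements. In macrophages, interferon regulatory factors such as IRF1, IRF5, IRF7 and IRF8 also act downstream of Toll-like receptors and are themselves products of interferon-induced genes or of myeloid differentiation.

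Depth limits what can be said of these genes. Total counts ran from 439976 to 514037 per library, and in the unit used here, CPM after TMM scaling of the libraries, a single count stood for 1.79 to 2.57, and a count of 0 allows up to 3 counts, or 0.000584% to 0.000682% of a library, for counting error only. All 11 macrophage markers listed had counts in every group (summed counts per library of 273 to 481 in M0 with vehicle, 223 to 395 in M0 with ISRIB, 126 to 274 in M1 with vehicle and 210 to 293 in M1 with ISRIB). Markers of neutrophils, dendritic cells, T cells and B cells summed to at most 4 counts in a library, with Ly6g, Flt3 and Cd3e at 0 throughout, and those of NK cells, fibroblasts and erythroid cells were all at 0. The macrophage sums were themselves small beside the library totals, so the low sums of other markers do not exclude other cells. In bulk RNA, fewer expressing cells and less RNA per cell cannot be told apart.

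The arrangement of the genes on the genome bears on every value. In the GENCODE annotation of GRCm38, the build that mm10 names, 24.1% of matched symbols had an exon overlapping an exon on the opposite strand, and these symbols held 92.3% of all counts (91.2% to 93.1% per library). Among the members, the 5 with such a neighbour in the table (Stat3, Irf5, Tnpo3, Irf7 and Phrf1) held 96.6% of the members' counts. That share follows in part from the list, since Tnpo3 and Phrf1 are on it for their overlap with Irf5 and Irf7. Irf5 alone held 5431 of the 8352 counts. The libraries were strand-specific per the labels, but the strand setting of the counting is not given in the sources used here. Reads of a gene and of its opposite-strand partner therefore cannot be told apart in these rows. For rows without a partner, such as Stat2 and Irf8, it is likewise unknown which strand was counted, and this was not tested. Low counts in such rows need not mean little transcript.

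Irf7 (chr7:141262706-141266481, minus strand) and Phrf1 (chr7:141228784-141262750, plus strand) converge, and their exons share 45 bases at chr7:141262706-141262750, none of them coding. Irf5 (chr6:29526625-29541871, plus strand) and Tnpo3 (chr6:29540827-29609887, minus strand) share 411 exonic bases in 2 segments between chr6:29541146-29541866, of which 123 were coding for Irf5 and 0 for Tnpo3. Stat3 (chr11:100885098-100939540, minus strand) shares 72 bases with Stat5a. Stat2 (chr10:128270559-128292849, plus strand) and Irf8 (chr8:120736358-120756694, plus strand) had no exon overlap with another gene. Irf1 (chr11:53770014-53778374, plus strand) overlapped the predicted gene Gm17334, and Irf9 (chr14:55603571-55610030, plus strand) shared 123 bases with the end of Rnf31 on the same strand.

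**Figure D1:**
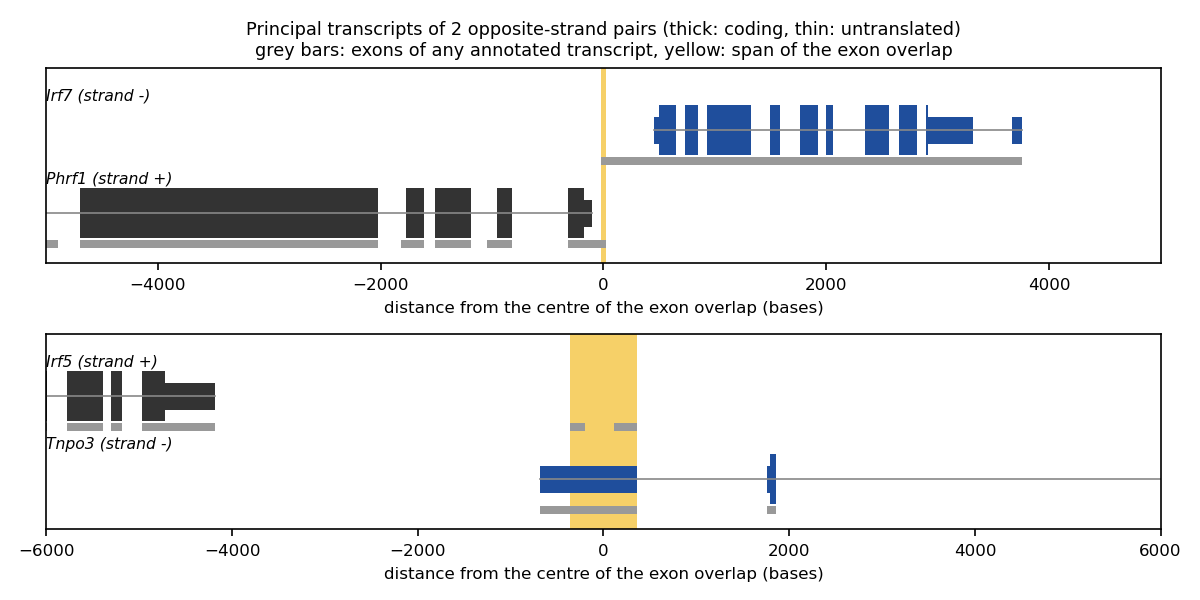
Maps of the 2 convergent pairs, with distance in bases from the centre of the exon overlap on the x axis, thick and thin boxes for coding and untranslated exons of the principal transcripts, grey bars for exons of any annotated transcript and a yellow band for the span of the exon overlap. The principal transcripts are 556 bases apart for Irf7 and Phrf1 and 3507 bases apart for Irf5 and Tnpo3, so each overlap involves exons of other annotated transcripts.

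Start-site sequences were examined because these factors bind elements that their own genes can carry. RefSeq windows on GRCm38.p6, from 250 bases before to 50 bases after the start, were matched for all 9 members (12 windows) and searched on both strands for the GAS letters TTCNNNGAA and for an ISRE core of GAAA, any 2 bases and GAAA again, which can overlap a GAS match. Of all 32851 windows, 8.30% held the GAS letters and 3.44% the ISRE core. The members' matches were 1 GAS match in Irf1 (TTCCCCGAA, beginning 90 bases before the start), 2 in Irf8 (171 and 153 bases before the start) and 1 ISRE match in Stat2 (TTTCAGTTTC, the ISRE core read on the other strand, 222 bases before the start). A match is a description of these letters and not evidence of binding, and the windows of the other 6 members held neither run. The windows below, written 5′ to 3′ on each gene's strand with the match in capitals, are those of the 2 factors with a match and a tested row, and of the Irf7 and Phrf1 pair, both of whose rows were called higher in M1. They lie at chr10:128270248-128270547 (plus strand) for Stat2, chr11:53769764-53770063 (plus) for Irf1, chr7:141266375-141266674 (minus) for Irf7 and chr7:141228538-141228837 (plus) for Phrf1.
Stat2: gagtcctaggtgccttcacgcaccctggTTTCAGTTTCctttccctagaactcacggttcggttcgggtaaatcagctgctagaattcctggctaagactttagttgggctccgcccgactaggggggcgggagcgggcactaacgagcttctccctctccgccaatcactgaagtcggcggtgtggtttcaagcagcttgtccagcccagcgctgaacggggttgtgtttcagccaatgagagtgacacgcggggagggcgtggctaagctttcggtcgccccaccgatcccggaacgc
Irf1: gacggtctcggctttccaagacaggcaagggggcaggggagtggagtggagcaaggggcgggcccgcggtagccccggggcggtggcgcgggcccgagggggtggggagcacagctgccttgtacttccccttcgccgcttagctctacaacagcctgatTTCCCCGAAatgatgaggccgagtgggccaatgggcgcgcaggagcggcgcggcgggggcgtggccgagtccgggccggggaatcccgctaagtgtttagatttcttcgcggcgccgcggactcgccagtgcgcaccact
Irf7: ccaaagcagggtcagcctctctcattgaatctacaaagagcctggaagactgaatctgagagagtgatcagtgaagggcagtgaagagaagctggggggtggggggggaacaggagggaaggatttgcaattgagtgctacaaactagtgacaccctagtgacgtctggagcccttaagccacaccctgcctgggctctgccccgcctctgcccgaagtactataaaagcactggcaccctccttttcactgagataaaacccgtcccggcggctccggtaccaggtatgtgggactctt
Phrf1: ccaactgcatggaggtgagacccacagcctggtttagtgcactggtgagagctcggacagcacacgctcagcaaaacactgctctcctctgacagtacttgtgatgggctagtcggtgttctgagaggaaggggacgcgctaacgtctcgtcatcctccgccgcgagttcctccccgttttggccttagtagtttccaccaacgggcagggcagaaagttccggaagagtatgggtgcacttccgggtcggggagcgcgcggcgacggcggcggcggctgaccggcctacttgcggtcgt

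The Irf7 and Phrf1 windows do not overlap, and held neither motif. The 2 genes begin 37697 bases apart, at opposite ends of the pair.

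The first comparison asked how the factors changed from M0 to M1 in vehicle-treated cells. Phrf1, Irf7, Stat2 and Irf5 were called higher in M1 (Irf5 not under every setting), and none of the 6 tested members was called lower. By edgeR's quasi-likelihood test with a Benjamini-Hochberg adjusted p of 0.05, 44.8% of the 2356 tested genes were called in either direction and 24.3% were called higher and 20.5% lower. The median log2 fold change was 3.26 over the 6 tested members and 0.01 over all tested genes. Stat2, Irf7 and Phrf1 were near 0 in M0 and passed the filter only through M1, which favours a high median. The 6 also include both rows of the Irf7 and Phrf1 pair and of the Irf5 and Tnpo3 pair. The median is thus a description and not a test. Tnpo3 and Irf1 did not pass. In CPM, 5 of the 6 members had every M1 library above every M0 library in vehicle, as did 27.7% of all tested genes, and Irf1 did not.

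Stat2 encodes a STAT that joins IRF9 in the complex formed after type I interferon. Its counts in replicates 1, 2 and 3 were 0, 2 and 0 in vehicle M0 and 21, 18 and 26 in vehicle M1. In ISRIB-treated cells they were 0, 4 and 0 in M0 and 21, 47 and 20 in M1. Every M1 library lay above every M0 library, and replicate 2 of ISRIB M1 stood above the other M1 libraries. Mean levels were 1.19 ± 2.07 CPM (SD, n = 3) in vehicle M0 and 53.8 ± 8.18 CPM in vehicle M1.

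The ratio of the summed Stat2 counts, M1 to M0, was 43.0 in vehicle (exact 95% interval 11.4 to 362, counting error only) and 27.05 in ISRIB (10.2 to 101). The fitted log2 fold change was 5.16 ± 0.95 (SE, adjusted p = 7.83e-05 by edgeR) in vehicle and 4.62 ± 0.86 (adjusted p = 9.55e-05) in ISRIB. Fitted folds of genes this close to 0 in M0 depend on the prior count that edgeR adds, so the ratios of counts carry the size. Without replicate 2 of M0, the only M0 library with Stat2 counts in each treatment, the fitted value became 7.64 in vehicle and 7.99 in ISRIB. Stat2 has no overlapping neighbour in the annotation, whereas Irf7, Phrf1, Irf5 and Tnpo3, the other members called in either treatment, do. That does not settle which strand the Stat2 counts came from.

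Stat3, the main mediator of IL-6 and IL-10 family signals, was too sparse for the filtered test. Its counts were 0, 0 and 0 in M0 with vehicle, 2, 0 and 2 in M0 with ISRIB, 10, 9 and 6 in M1 with vehicle and 6, 14 and 6 in M1 with ISRIB. All 6 M1 libraries had counts above all 6 M0 libraries. Against a floor of 3 counts per library, Stat3 was at least 3.68-fold higher in M1 in vehicle, and the ratio in ISRIB was 7.99 (2.77 to 31.5). Without the filter, edgeR called Stat3 in vehicle (adjusted p = 0.00276 over 10978 genes) and not in ISRIB (adjusted p = 0.186). The difference between the treatments was not called (interaction adjusted p = 0.952 by edgeR without the filter). Stat5a, which shares 72 exonic bases with it, summed to 2 counts in M0 with vehicle, 6 in M0 with ISRIB, 12 in M1 with vehicle and 13 in M1 with ISRIB.

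Irf7 is the interferon-induced factor that amplifies type I interferon genes, and Phrf1, a PHD and RING finger protein, is its convergent neighbour. Irf7 counts were 2, 5 and 0 in vehicle M0 and 41, 31 and 72 in vehicle M1, then 0, 4 and 1 in ISRIB M0 and 42, 58 and 51 in ISRIB M1. Phrf1 counts were 0, 0 and 1 in vehicle M0 and 298, 217 and 239 in vehicle M1, then 0, 2 and 0 in ISRIB M0 and 332, 248 and 236 in ISRIB M1. Both rows were near 0 in every M0 library and far above it in every M1 library, with no overlap between states.

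The mean level of Irf7 in vehicle was 4.22 ± 4.50 CPM in M0 (SD, n = 3) and 118.5 ± 48.7 CPM in M1, and in ISRIB it was 3.05 ± 3.78 CPM in M0 and 118.2 ± 12.7 CPM in M1. Phrf1 went from 0.675 ± 1.17 to 626.2 ± 104.3 CPM in vehicle and from 1.21 ± 2.10 to 646.4 ± 158.9 CPM in ISRIB. The ratio of summed Irf7 counts, M1 to M0, was 27.2 (12.9 to 68.8) in vehicle and 37.1 (15.6 to 116) in ISRIB. For Phrf1 the same ratio rests on 1 count in vehicle M0 and 2 counts in ISRIB M0, and its exact counting intervals ran from 178 upward in vehicle and from 138 upward in ISRIB.

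The edgeR log2 fold change was 4.68 ± 0.64 for Irf7 (adjusted p = 1.18e-06) and 9.45 ± 0.48 for Phrf1 (adjusted p = 7.62e-15) in vehicle. In ISRIB it was 5.11 ± 0.67 for Irf7 (adjusted p = 6.44e-07) and 8.71 ± 0.44 for Phrf1 (adjusted p = 1.07e-14). The fitted values rest on the few M0 counts: without replicate 3 of vehicle M0, which held the only count, Phrf1 was at 11.2, and without replicate 2 of ISRIB M0 it was at 11.2 in ISRIB. Each SE is that implied by the test statistic and does not hold the counting error of so few counts. Counting error alone let the Phrf1 ratio in vehicle run from 178 to 39417. Without replicate 2 of M0, Irf7 was at 5.77 in vehicle and 6.57 in ISRIB. On the authors' deposited log2 scale, Phrf1 lay between 0 and 1.42 in M0 and between 8.05 and 8.67 in M1.

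The pair did not split its counts evenly in M1. Irf7 took 12.1%, 12.5% and 23.2% of the pair's counts in the 3 vehicle M1 libraries and 11.2%, 19.0% and 17.8% in ISRIB M1. Summed over a group, its share was 16.0% (exact 95% interval 13.7% to 18.6%) in vehicle M1 and 15.6% (13.4% to 18.1%) in ISRIB M1. The neighbour's row thus held most of the pair's counts in all 6 M1 libraries, and replicate 3 of vehicle M1 had the largest share for Irf7. In M0 the pair together had 8 counts in vehicle and 7 in ISRIB, too few for a share. When the rows of opposite-strand partners were summed before fitting, the Irf7 and Phrf1 pair had a log2 fold change of 7.14 in vehicle (edgeR adjusted p = 1.87e-14) and 7.34 in ISRIB (adjusted p = 1.74e-14).

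**Figure D2:**
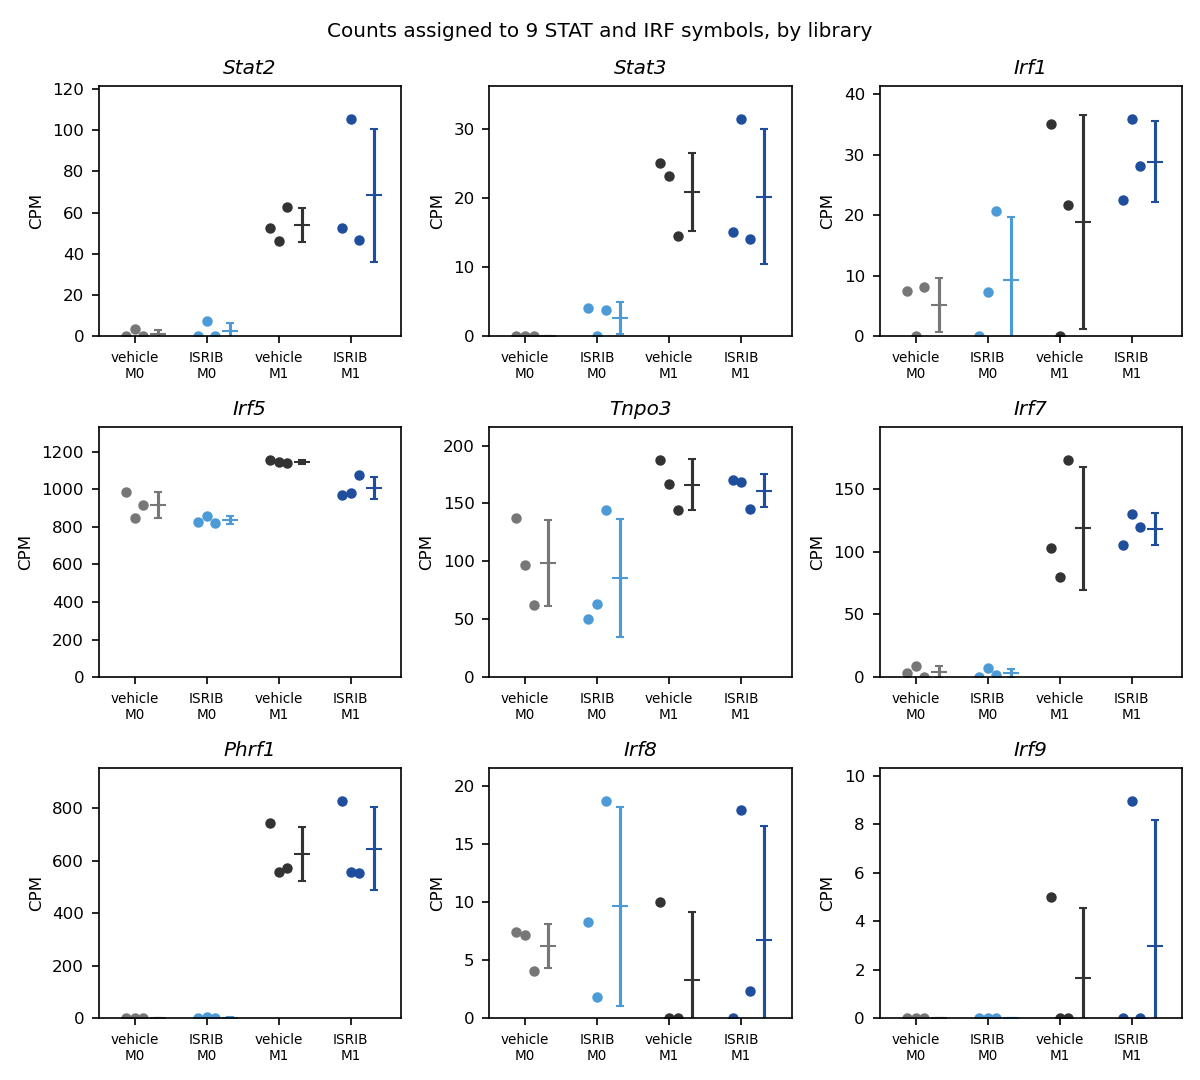
CPM on the y axis for each of the 9 members, 1 panel per gene on its own scale, with the 4 groups on the x axis, a point per library and a bar at the group mean ± SD (n = 3). Phrf1, Irf7 and Stat2 are near 0 in M0 and higher in all 6 M1 libraries, whereas Irf5 is well above 0 in all 12 libraries and its M1 and M0 means are close in proportion.

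Irf5, a factor that acts downstream of Toll-like receptors and is associated with inflammatory macrophages, had the most counts of the members. Its counts were 533, 474 and 453 in M0 with vehicle, 397, 472 and 439 in M0 with ISRIB, 462, 445 and 473 in M1 with vehicle and 388, 436 and 459 in M1 with ISRIB. The Irf5 row may also hold reads of Tnpo3, since the strand setting of the counting is not given. The raw counts of the 2 states overlapped. After TMM scaling, levels were highest in vehicle M1 (1146 ± 10.2 CPM, SD, n = 3), followed by ISRIB M1 (1008 ± 58.2), vehicle M0 (917.9 ± 69.7) and ISRIB M0 (835.5 ± 20.1). Within each treatment every M1 library then lay above every M0 library. In that order of the groups, the libraries of ISRIB M1 overlapped those of vehicle M0, and those of vehicle M0 overlapped those of ISRIB M0.

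The edgeR log2 fold change of Irf5 from M0 to M1 was 0.32 ± 0.12 in vehicle (adjusted p = 0.0318) and 0.27 ± 0.12 in ISRIB (adjusted p = 0.0710), so it was called in vehicle and not in ISRIB. Both sides of that split moved with the processing. In ISRIB, Irf5 was called under 7 of 13 other settings (log2 fold change 0.27 to 0.34, adjusted p 0.0195 to 0.0424): DESeq2 size factors, upper-quartile scaling, a minimum mean of 50 counts, the DESeq2 Wald test, limma on the deposited log2 values, counts halved, and its row summed with Tnpo3. In vehicle it was called under 10 of 13, and not with no filter (0.23, adjusted p = 0.480), with the replicate block and no filter (0.23, adjusted p = 0.587) or with total counts. With total counts alone the value was 0.02 in vehicle (adjusted p = 0.915) and -0.02 in ISRIB (adjusted p = 0.899). That scaling moved the median of all tested genes by -0.30 in vehicle and -0.29 in ISRIB on the log2 scale, and it moved the share of higher genes among those called from 54.2% to 41.1% in vehicle and from 53.4% to 39.4% in ISRIB. The vehicle call was also lost without any 1 of the vehicle M1 libraries, or without replicate 2 or 3 of vehicle M0 (log2 fold change 0.28 to 0.34, adjusted p 0.0588 to 0.122).

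Tnpo3 encodes an importin that carries serine- and arginine-rich proteins into the nucleus, and it converges with Irf5. Its counts were 74, 54 and 31 in M0 with vehicle, 24, 35 and 77 in M0 with ISRIB, 75, 65 and 60 in M1 with vehicle and 68, 75 and 62 in M1 with ISRIB. M0 libraries were the more spread out, with replicate 3 low in vehicle and high in ISRIB. In scaled terms the vehicle groups did not overlap (62.8 to 137.1 CPM in M0, 144.2 to 187.8 CPM in M1), and in ISRIB the highest M0 library (144.2 CPM) lay just under the lowest M1 library (145.2 CPM).

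By edgeR, Tnpo3 differed between M1 and M0 by a log2 fold change of 0.74 ± 0.34 in vehicle (adjusted p = 0.0739) and rose by 0.90 ± 0.34 in ISRIB (adjusted p = 0.0335). The vehicle value was called with limma-voom (0.79, adjusted p = 0.0458), limma on the deposited log2 values (0.86, adjusted p = 0.0434), counts halved (0.77, adjusted p = 0.0454) and its row summed with Irf5 (0.37, adjusted p = 0.0136), and without replicate 1 of vehicle M0 (1.07) or replicate 3 of ISRIB M0 (0.75). The ISRIB call was lost with total counts alone (0.61, adjusted p = 0.153), no filter (0.84, adjusted p = 0.0875), the block and no filter (0.85, adjusted p = 0.101), and without replicate 1 or 2 of ISRIB M0 or of ISRIB M1 (0.62 to 0.89, adjusted p 0.069 to 0.171), and it became 1.49 without replicate 3 of ISRIB M0. Tnpo3 took 9.82% of the counts of the Irf5 and Tnpo3 pair in vehicle M0 and 12.7% in vehicle M1, then 9.42% in ISRIB M0 and 13.8% in ISRIB M1. Unlike the Irf7 pair, the pair with Irf5 thus kept most of its counts in the row of the IRF gene.

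Irf1, an early target of IFN-γ, had few counts. They were 4, 0 and 4 in M0 with vehicle, 0, 4 and 11 in M0 with ISRIB, 14, 0 and 9 in M1 with vehicle and 9, 16 and 12 in M1 with ISRIB. Raw counts of the states overlapped in both treatments, and replicate 2 of vehicle M1 had no count. In CPM the states overlapped in vehicle but not in ISRIB, where the highest M0 library had 20.6 CPM and the lowest M1 library 22.5 CPM. Mean levels were 5.17 ± 4.49 CPM (SD, n = 3) in M0 with vehicle, 9.29 ± 10.4 in M0 with ISRIB, 18.9 ± 17.7 in M1 with vehicle and 28.8 ± 6.74 in M1 with ISRIB. The edgeR log2 fold change of 1.84 ± 1.16 in vehicle (adjusted p = 0.209) and 1.59 ± 1.08 in ISRIB (adjusted p = 0.239) did not pass.

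Irf8 and Irf9 were close to absent from the table. Irf8, a factor of myeloid development, had 4, 4 and 2 counts in M0 with vehicle, 4, 1 and 10 in M0 with ISRIB, 4, 0 and 0 in M1 with vehicle and 0, 8 and 1 in M1 with ISRIB. Irf9, the DNA-binding subunit of the type I interferon complex, had counts only in replicate 1 of vehicle M1 (2 counts) and replicate 2 of ISRIB M1 (4 counts). With so few counts no difference could be detected for either. Why these rows held so few counts was not tested. Without the filter, edgeR gave adjusted p of 0.799 for Irf8 and 0.527 for Irf9 in vehicle.

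The same question was asked in ISRIB-treated cells. Phrf1, Irf7, Stat2 and Tnpo3 were called higher in M1 (Tnpo3 not under every setting), and 0 of the 6 tested members were called lower. Of all tested genes, 44.8% were called in either direction and 23.9% were called higher and 20.9% lower. The median log2 fold change was 3.11 over the 6 tested members and -0.01 over all tested genes, with the same limits as the median in vehicle. In CPM all 6 had every M1 library above every M0 library, as did 28.8% of all tested genes. Irf5 was called in vehicle and Tnpo3 in ISRIB, but the interaction, which tests the difference between the treatments, was not called for Irf5 (log2 difference of -0.05 ± 0.17, adjusted p = 0.982) or Tnpo3 (0.16 ± 0.47, adjusted p = 0.980).

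**Figure D3:**
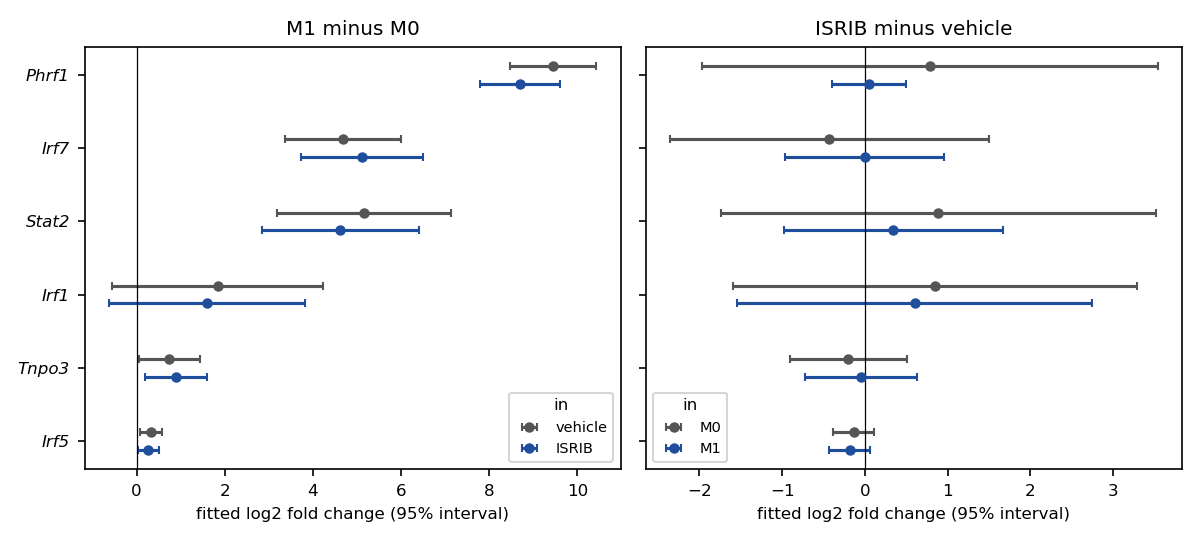
Fitted log2 fold changes from edgeR on the x axis with 95% intervals as bars, for the 6 tested members on the y axis, with M1 minus M0 in the left panel (in vehicle and in ISRIB) and ISRIB minus vehicle in the right panel (in M0 and in M1). The M1 minus M0 intervals of Phrf1, Irf7 and Stat2 lie well above 0 in both treatments, and every interval of ISRIB minus vehicle includes 0. Intervals of rows near 0 in a group can be narrower than counting error alone.

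The effect of ISRIB on the factors was then compared within each state. No member was called in M1 or in M0. The background was 0% of the 2356 tested genes in M1 and 0% in M0 by edgeR, with 134 and 143 genes at an unadjusted p under 0.05, none of them a member. The DESeq2 Wald test called 0 genes in M1 and 3 in M0, limma-voom called 0 and 1, and neither called a member.

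The intervals show what the data could have missed. In M1 the 95% interval of the ISRIB to vehicle log2 fold change was -0.40 to 0.49 for Phrf1, -0.96 to 0.95 for Irf7 and -0.98 to 1.67 for Stat2. For Tnpo3 it was -0.72 to 0.63, and for Irf1 -1.55 to 2.75. Of Phrf1, Irf7 and Stat2, Phrf1 thus had the narrowest interval, and a rise of 1 on the log2 scale lies inside the intervals of Stat2 and Irf1.

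Irf5 was the only tested member whose ISRIB and vehicle libraries did not overlap in M1: 969.9, 978.8 and 1075 CPM with ISRIB against 1157, 1144 and 1137 CPM with vehicle. Such separation was seen in 11.6% of all tested genes in that comparison. Its log2 fold change was -0.19 (95% interval -0.43 to 0.06), with an edgeR adjusted p of 0.915. In M0 it was -0.14 (-0.38 to 0.11, adjusted p = 0.998), and there the libraries overlapped, as did those of the other tested members (11.3% of all tested genes did not overlap). Averaged over both states, it was -0.16 ± 0.09 (unadjusted p = 0.0713, adjusted p = 0.842), and the background of calls was 0% of tested genes.

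In M0 most factors were too sparse to bound an effect of ISRIB. The interval of the log2 fold change was -1.97 to 3.54 for Phrf1, -2.35 to 1.496 for Irf7, -1.74 to 3.51 for Stat2 and -1.59 to 3.29 for Irf1. Exact counting intervals of the ratio of summed counts were 0.106 to 120 for Phrf1 and 0.292 to 22.5 for Stat2. They were 0.182 to 2.66 for Irf7 and 0.759 to 5.20 for Irf1. For Phrf1 and Stat2 the fitted intervals were thus narrower than counting error alone. Tnpo3 was bounded between -0.91 and 0.50. The interaction of ISRIB with polarization was called for 0 members and for 0% of all tested genes, with 167 genes and 0 members at an unadjusted p under 0.05. The averaged effect gave 146 genes and 0 members at that level.

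Other STAT genes were read beside the members. Stat5b, which signals downstream of growth hormone and GM-CSF, had 0, 0 and 0 counts in vehicle M0 and 66, 65 and 45 in vehicle M1, then 2, 0 and 6 in ISRIB M0 and 47, 96 and 72 in ISRIB M1. It rose in M1, as Stat2 did, with no overlap between the states.

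Stat5b was at least 25.9-fold higher in M1 than in M0 in vehicle, and the ratio of its summed counts was 33.04 (16.5 to 77.5) in ISRIB (edgeR adjusted p = 9.97e-09 and 1.12e-07). Stat6, the IL-4 and IL-13 effector, differed by a log2 fold change of -0.32 ± 0.28 in vehicle (edgeR adjusted p = 0.371) and did not pass. Stat6 shares 40 exonic bases with Nab2 on the opposite strand, while Stat5b shares none with another gene.

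A list of 128 genes of the JAK, STAT and IRF pathway, ordered by role, held 127 in the table and 37 that could be tested. In vehicle, 27 of the 37 were called higher in M1 and 0 lower. In ISRIB, 27 were called higher, 25 of them the same as in vehicle, and 1 lower. Over all tested genes, 24.3% were called higher and 20.5% lower in vehicle, and 23.9% and 20.9% in ISRIB. Target genes made up 19 of the 27 in each treatment. The median log2 fold change of the 37 was 5.43 in vehicle and 6.21 in ISRIB (2.84 and 3.51 with genes absent from M0 set at their lower bounds), beside 0.01 and -0.01 over all tested genes. Since genes of this sort pass the filter through the M1 libraries, the counts describe only the genes that passed.

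By role, coverage was uneven. None of the 14 ligands and none of the 4 JAK kinases could be tested, Ifnb1 and Ifng had no count in any library, and the kinases had at most 14 counts. Of 16 receptors 2 were tested, and 0 were called. Of the 4 STATs tested, the same 3 rose in both treatments, and of the IRFs 2 of 3 rose in vehicle (Irf7 and Irf5) and 1 of 3 (Irf7) in ISRIB, with the Irf5 calls differing by setting. Among the 20 target genes tested, 19 were called higher in vehicle and 19 in ISRIB, 18 of them in both, where 24.3% and 23.9% of all tested genes were called higher.

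Of the 17 feedback inhibitors listed, 3 were tested, and 2 were called higher in vehicle and 3 in ISRIB. Of all tested genes, 24.3% and 23.9% were called higher. Socs3, which blocks JAK activity at cytokine receptors, had 0 counts in all M0 libraries and 8, 11 and 6 in vehicle M1, and was at least 3.69-fold higher (edgeR adjusted p = 0.00292). Usp18, which restrains the type I interferon receptor, had 1, 0 and 0 counts in vehicle M0 and 38, 4 and 4 in vehicle M1 (edgeR adjusted p = 0.00101), with most of the M1 counts in replicate 1. Both were called in ISRIB too, and Ptpn6, a phosphatase, was called there and not in vehicle (adjusted p = 0.0319 and 0.106). The interaction was called for 0 of the 3 inhibitors tested. Ifih1, the RNA sensor MDA5 upstream of IRF3 and IRF7, was at least 4.09-fold higher in vehicle M1 (edgeR adjusted p = 0.00137).

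The targets named by the rule were near 0 or at 0 in M0. Ifit2, an RNA-binding antiviral protein, had 2, 0 and 0 counts in vehicle M0 and 258, 173 and 248 in vehicle M1, and the ratio of summed counts in ISRIB was 133 (67.2 to 309). Gbp2, an IFN-γ-induced GTPase, had 0, 0 and 0 counts in vehicle M0 and 89, 26 and 66 in vehicle M1, at least 26.4-fold higher. By the same bound Rsad2, the antiviral enzyme viperin, was at least 60.0-fold higher and the chemokine Cxcl9 at least 39.9-fold higher. All 4 were called by edgeR in both treatments, with adjusted p of 1.13e-08 or smaller. The 1 listed gene called lower was Ifi35, a partner of NMI, with 27, 20 and 24 counts in ISRIB M0 against 0, 2 and 4 in ISRIB M1 (edgeR adjusted p = 0.00582). It was not called in vehicle (adjusted p = 0.402), and the difference between treatments was not called (interaction adjusted p = 0.706). No listed gene was called in a comparison of ISRIB with vehicle.

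**Figure D4:**
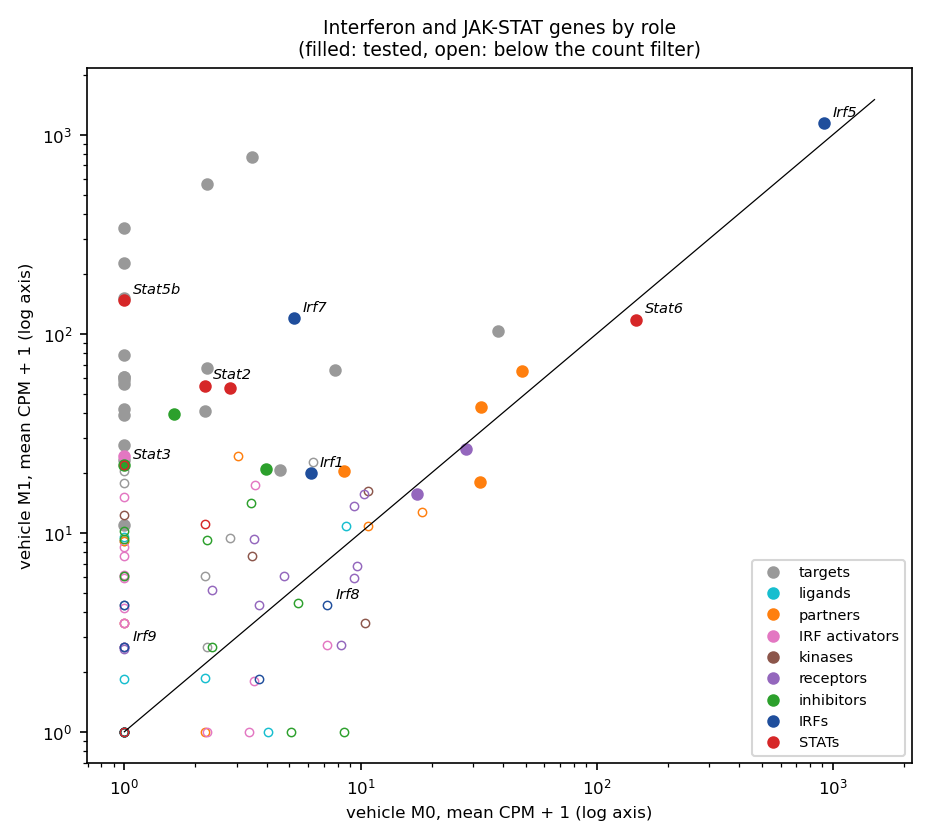
Mean CPM + 1 in vehicle M1 on the y axis against vehicle M0 on the x axis, both on log axes, for the genes of the pathway list coloured by role, with filled points for tested genes, open points for genes below the count filter and a line of equal level. Stat5b, Stat2 and Irf7 lie far above the line with most targets, and Irf5 and Stat6 lie near it.

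Genes with patterns most like those of the tested members were found by Pearson correlation of log2 CPM over the 12 libraries among genes averaging 50 counts or more. The libraries fall into an M0 and an M1 cluster, so a high value mostly records a shared difference between states. Phrf1 was most like Tlr1 and Med7 (r = 0.996 for both), and Irf7 most like Ovol1 (0.984) and Fanca (0.983). Stat2 was most like Ovol1 and Tlr1 (0.978 for both). Irf5 was most like Ano8 (0.912) and Cntd1 (0.897), and Tnpo3 most like Plekhh1 (0.899) and Mars (0.895). Irf1 had the lowest values, with Tesk2 at 0.764 and 4930577N17Rik at 0.750.

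The shapes behind these values differed. Tlr1 and Med7 were, like Phrf1, near 0 in M0: Med7 was at 0 in all M0 libraries and at 326.1 ± 12.95 CPM (SD, n = 3) in vehicle M1. Ovol1 was present in both states, at 116.3 ± 22.4 CPM in vehicle M0 and 643.7 ± 40.8 CPM in vehicle M1. Between Irf7 and Phrf1 themselves the correlation was 0.97 over the 12 libraries, 0.14 over the 6 M0 libraries and -0.25 over the 6 M1 libraries, and the M0 value rests on 0 to 5 counts per library.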

How the data were processed

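Polyadenylated RNA of 12 samples in 4 groups of 3 was sequenced from strand-specific TruSeq libraries on a NovaSeq instrument, per the labels. The authors deposited whole-number counts per gene symbol for 12 samples, and log2 values that match log2(count / size factor + 1), with a relative deviation of at most 3.56e-09. FastQC, HTSeq, DESeq2 and mm10 are named in the submitters' processing notes, without versions. The aligner, annotation and strand setting are not given in the sources used here.

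Groups came from the sample titles. Tests used edgeR 4.0.16 (R 4.3.3). Its function filterByExpr (minimum count 10, minimum total 15) left 2356 genes with 97.6% of counts, and some members could pass only through M1. Libraries were scaled by TMM. Group means were fitted to all 12 samples without a replicate block, and 6 contrasts were tested with the quasi-likelihood test, two-sided, adjusted over all tested genes by Benjamini-Hochberg at 0.05. The common biological coefficient of variation was 0.275. The standard error is that implied by the test statistic, and intervals of fitted values are built from it. For rows near 0 in a group, both can be narrower than counting error alone. Ratios of summed counts carry exact 95% intervals and pair shares carry Clopper-Pearson intervals, which cover counting error only since no molecular identifiers were counted. Bounds against groups at 0 use 3 counts per library. The procedure was tested on simulated data.

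The members, the pathway and marker lists and the tests were chosen with earlier results of these data known, so counts over the lists are descriptions. All 9 members are named. Pathway genes are named by rule: those called with the largest absolute log2 fold change in M1 against M0 in vehicle, up to 4 higher and 2 lower per role. Not every gene the rule names is reported here. Opposite-strand neighbours of STAT and IRF genes are named with it. Ptpn6, Ifi35, Stat6, Ifnb1 and Ifng fell outside it and were named after their values were seen. For each tested member the 2 genes most like it were named, using a prior count of 2. Alternatives were DESeq2 size factors, upper-quartile scaling, total counts alone, no filter, a minimum mean of 50 counts, the DESeq2 1.42.0 Wald test, limma 3.58.1 (voom and on the deposited log2 values), a replicate block, only the compared groups, a minimum absolute log2 fold change of 1, opposite-strand pairs summed, counts halved, and each library left out. Total counts alone, counts halved and rounded up, and the block without a filter were chosen after seeing the data. Halving was tried because 63.4% to 68.6% of counts from 1 to 10 in a library were even, against 50.4% in well-counted genes. The exact intervals treat counts as independent and would be too narrow if counts came in pairs. Whether they did was not tested. Annotation overlaps were read from GENCODE M21 on GRCm38 and start-site windows from RefSeq on GRCm38.p6.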

Additional observations from a re-analysis of the deposited data

How the results depend on the processing

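The rises of Phrf1, Irf7 and Stat2 in M1 were called in both treatments under every alternative in which the gene was tested. With a minimum mean of 50 counts, only 836 genes and 3 members were tested. Of these, 530 genes and 2 members were called in vehicle, and 523 genes and 3 members in ISRIB. With the main filter, 1055 of 2356 genes and 4 of 6 members were called in each treatment. With 1 library left out, 3 to 6 members and 963 to 1109 genes were called in vehicle, and 3 to 4 members and 937 to 1099 genes in ISRIB. No member was called for ISRIB against vehicle, for the interaction or for the averaged effect under any alternative. Summing pairs gave no count of members called.

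Counts of all genes called were higher under some settings. For ISRIB against vehicle in M0 they were 10 with no filter, 3 with the DESeq2 Wald test and 1 with limma-voom. They were 9 for the interaction and 2 for the averaged effect with no filter. With 1 library left out they were 0 to 1 in M1, 0 to 6 in M0, 0 to 4 for the interaction and 0 to 2 for the averaged effect. The cause was not tested.

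The correlation of deviations between samples sharing a replicate number ran from -0.06 to 0.11. In 8 of 12 cases a sample correlated best with its own number. In the labels, library names run consecutively within each replicate number, with every group in each run. What the samples of a replicate number share is not stated. With the replicate block, 1047 genes were called in vehicle, 1026 in ISRIB and 3 for the interaction, and no call of a tested member changed. With the block and no filter, 7 genes were called for ISRIB against vehicle in M0, 7 for the interaction and 1 for the averaged effect.

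Signs changed only in values that were not called by the edgeR test as reported, and the cause was not tested. For M1 against M0 in ISRIB, Irf5 was at -0.020 with total counts alone. For ISRIB against vehicle in M1, Irf7 was at 0.0094 with DESeq2 size factors, 0.014 with no filter, 0.0095 with the DESeq2 Wald test, 0.059 with limma-voom, 0.065 with limma on the log2 values, 0.036 with pairs summed and 0.0053 with total counts. With pairs summed, Phrf1 was at -0.16 for ISRIB in M0, 0.20 for the interaction and -0.062 averaged, and Tnpo3 at -0.026 for the interaction. For the interaction, Irf1 was at 0.97 with limma-voom, 0.95 with limma on the log2 values, 0.059 with the replicate block and 0.12 with the block and no filter, Stat2 at 0.011 with limma on the log2 values and Phrf1 at 0.024 with counts halved.

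With 1 library left out, log2 values for ISRIB against vehicle in M1 ran from -0.22 to 0.37 for Irf7, -0.18 to 0.19 for Phrf1, -0.10 to 0.55 for Stat2 and -0.14 to 0.047 for Tnpo3. In M0 they ran from -0.40 to 1.41 for Irf1, -1.88 to 0.66 for Irf7, -1.73 to 2.54 for Phrf1, -2.48 to 3.37 for Stat2 and -0.78 to 0.12 for Tnpo3. For the interaction they ran from -0.83 to 1.00 for Irf1, -0.66 to 1.88 for Irf7, -2.49 to 1.78 for Phrf1, -3.03 to 2.83 for Stat2 and -0.17 to 0.74 for Tnpo3. Averaged, they ran from -0.94 to 0.33 for Irf7, -0.84 to 1.29 for Phrf1, -1.07 to 1.86 for Stat2 and -0.41 to 0.040 for Tnpo3. Low counts limited these comparisons most in M0, where Stat2, Irf7 and Phrf1 had 0 to 5 counts per library.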
